A study of Caenorhabditis elegans with 4 samples.

Results

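Chromosome III of Caenorhabditis elegans carried 214 of the 1310 listed regions at which RNA polymerase II (Pol II) was enriched in young adult worms. They were taken by their chromosome name alone, so no measured value entered the choice. The immunoprecipitated (ChIP) libraries came from chromatin of N2 worms, the wild-type laboratory strain, as young adult hermaphrodites grown at 20 °C and fixed in 2% formaldehyde, with 8WG16, a mouse monoclonal antibody that binds the heptapeptide repeats of the Pol II tail. Input DNA from the same strain, stage and sex served as control, and each group had replicates 1 and 2. The regions came from 1 list that combines the replicates, so no value below has an error between worm cultures. For the same reason no test was made between chromosomes.

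Pol II transcribes protein-coding genes, and its largest subunit, AMA-1 in this worm, ends in a repeated heptapeptide whose phosphorylation changes as the enzyme moves from the promoter into the gene. ChIP with sequencing counts the DNA fragments that the enzyme was bound to, so long stretches of signal are common where genes are transcribed along their length. Worm autosomes have a central part rich in conserved and widely expressed genes, flanked by arms with more repeats and more recombination, and many neighbouring genes are transcribed together as operons. Whole animals were used, germ line included, so more nuclei with Pol II at a site and more Pol II per nucleus cannot be told apart. Regions are named by position in WormBase build WS180. No gene, exon, promoter or UTR was assigned to them, because the gene table at hand was of another build, and for want of a WS180 genome no sequence is printed.

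The number of sequenced fragments (tags) behind each region was recovered from its q-value, the significance after correction for many regions. Exactly 1 pair of ChIP and scaled control tags matched in 214 of 214 regions on III. Scaled control tags are input tags multiplied by a factor that was fitted for each chromosome, 1.74 on III. Intervals are exact at 95%, except that of covered length. They cover counting error only and treat tags or regions as independent, which makes them too narrow. How deeply the libraries were sequenced is unknown. By the recovered ranks the list starts at rank 30. The 29 more significant regions, whose chromosomes are unknown, are thus missing from every count, rank and extreme below.

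Pol II regions on III were long and for the most part moderately enriched. Together they covered 606 kb, or 4.40% of the chromosome up to the end of its last region. The median length was 2198 bp (95% exact interval 1875 to 2624 bp), with quartiles of 953 and 3915 bp and extremes of 22 and 20010 bp. The median number of tags in a region was 579 for ChIP and 344 for scaled control, and the quartiles of ChIP tags were 217 and 1101. ChIP exceeded scaled control by a median ratio of 1.75 (1.67 to 1.82), with quartiles of 1.49 and 2.12. Few listed regions stood far above input. A ratio of at least 2 was reached by 67 of them (31.3%, against 38.4% of all regions with tags), one of at least 3 by 8 (3.74%, against 9.45% of all regions with tags) and one of at least 4 by 2, while 58 were under 1.5.

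The listed region ranked first on III by q-value, 8443238 to 8449836, had 567 ChIP tags per kb over 6599 bp. It had a ratio of 2.95 (2.72 to 3.20) and lay 87478 bp from its nearest neighbour. The second, 8651781 to 8659586, was 7806 bp long and held 3639 ChIP and 1309 scaled control tags, a ratio of 2.78 (2.57 to 3.01). Both lay in the central part of the chromosome. The third, 10336862 to 10339882, was shorter, at 3021 bp, and had the highest ratio of all listed regions on III. It held 1769 ChIP tags against 415 scaled control tags (ratio 4.26, interval 3.73 to 4.91). Its interval lay above those of the first 2. The fourth, 9050176 to 9057339, held 3352 against 1338 tags (ratio 2.51, interval 2.32 to 2.71) and had weaker regions on either side. On its left, 242 bp away, 9047093 to 9049933 had a ratio of 1.29 (1.11 to 1.52). On its right, 1082 bp away, 9058422 to 9060554 had a ratio of 1.68 (1.44 to 1.96). The interval of the fourth region lay above both. That region was picked for its low q-value, from the same tags, so the choice favoured a higher ratio than at its neighbours.

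Ranks 5 to 10 had ratios between 1.99 and 2.94. They were 12603759 to 12617840 (14082 bp, ratio 1.99), 7369564 to 7379006 (9443 bp, ratio 2.13), 10532797 to 10538053 (5257 bp, ratio 2.94), 831715 to 836495 (4781 bp, ratio 2.47), 5873952 to 5877535 (3584 bp, ratio 2.79) and 3793290 to 3802597 (9308 bp, ratio 2.09). Of the 10 most significant regions, 5 lay in the central part, 3 in the right part and 2 in the left part of III. These 10 made up 11.7% of the covered length and 17.04% of the ChIP tags in the regions of III. Measured as ChIP tags in excess of scaled control tags, 76460 on the whole chromosome, their share was 23.0%. A larger share of the excess, 50.2%, lay in the 67 regions with a ratio of at least 2, which made up 29.3% of the covered length. The 58 regions under 1.5 covered 32.6% of the length and held 15.1% of the excess.

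The longest region of III was 7718386 to 7738395, which spanned 20010 bp in the central part. It held 5121 ChIP tags, the most of any region with tags in the list, but its 256 ChIP tags per kb were at the median of the chromosome (256 per kb, interval 245 to 270). The next in length were 12603759 to 12617840, described above, and 345374 to 358083, at 12710 bp with 4070 ChIP tags against 2263 scaled control tags (ratio 1.80, interval 1.69 to 1.92). The fourth, 4560129 to 4569992, spanned 9864 bp at a ratio of 1.56 (1.43 to 1.69), and the fifth was 7369564 to 7379006. The long regions were thus spread over both arms and the centre, and 3 of them reached 10000 bp. The longest 10% of regions, 21 on III, made up 29.4% of the covered length, close to the 29.2% that the longest 10% made up on the other autosomes together.

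At the other end, 28 regions on III were under 500 bp and 4 under 200 bp. The shortest, 3493897 to 3493918, spanned 22 bp with 24 ChIP tags against 6 scaled control tags (ratio 4, interval 1.39 to 23.8). The next were 266044 to 266142, with 29 against 9 tags, 6124160 to 6124273, with 33 against 10, 12622687 to 12622866, with 39 against 14, and 12537347 to 12537564, with 46 against 19. Their ratios, between 2.42 and 4, had intervals that reached down to 1.39 or lower, so at this depth they could not be told from the median region. Tags per kb may overstate such short regions, since sequenced fragments can be longer than the region. The 28 regions under 500 bp held 1.52% of the ChIP tags in the regions of III.

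Among regions of at least 500 bp, 4 had a ratio of at least 3. Besides the region at 10336862 these were 6508472 to 6509936 (1465 bp, 721 ChIP tags against 183 scaled control tags, ratio 3.94, interval 3.21 to 4.89), 1418669 to 1420723 (2055 bp, 1183 against 347, ratio 3.41, interval 2.93 to 3.99) and 12250138 to 12251199 (1062 bp, 624 against 190, ratio 3.28, interval 2.68 to 4.07). These 4 were between 1062 and 3021 bp long, and they lay in all 3 parts of the chromosome. The other 4 regions with such ratios were under 500 bp, and 12623585 to 12623808 was the one among them with the most tags, 49 against 14. The most ChIP tags per kb in regions of at least 500 bp, 604, were found at 5023495 to 5025714 (2220 bp, 1341 against 452 tags, ratio 2.97, interval 2.60 to 3.41).

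In regions with many tags a small excess passes a significance limit. The 5 weakest ratios on III belonged to regions of 2946 to 6721 bp with 592 to 1454 ChIP tags. All were above the median of III in both, but the fewest tags were close to that median. The lowest in the whole list was 13616773 to 13623493 on III, with 1454 ChIP tags against 1286 scaled control tags in 6721 bp, a ratio of 1.13 (1.03 to 1.24). It was followed on III by 9617926 to 9622494 at 1.19 (1.07 to 1.33), 12685482 to 12688427 at 1.22 (1.05 to 1.41), 883315 to 889402 at 1.22 (1.11 to 1.34) and 3735068 to 3738360 at 1.23 (1.07 to 1.42). All 5 intervals lay above 1. The regions nearest to the q-value limit of 0.01 were 8232494 to 8233173 (q = 0.00976), 5908391 to 5908833 (q = 0.00947) and 266044 to 266142 (q = 0.00905). Regions with fewer than 100 tags in all, 9 on III, had ratios of at least 2.10, while the 43 regions with over 2000 tags reached down to 1.13.

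Length and ratio were weakly and inversely related on III. Across its 214 regions Spearman's rho between length and ratio was -0.23, and Pearson's r of their log10 values was -0.30. Both describe regions that share the same libraries and the same limit of significance, and no p is given. The relation did not run one way through all lengths. The median ratio was 2.13 (1.90 to 2.36) in the 28 regions under 500 bp, 1.74 (1.65 to 1.82) in the 70 regions of 500 to 1999 bp and 1.57 (1.47 to 1.74) in the 84 regions of 2000 to 4999 bp. In the 32 regions of 5000 bp or more it was 1.89, with a wide interval of 1.502 to 2.13. Short regions with few tags entered the list only at high ratios, which bears on the shortest class.

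**Figure D1:**
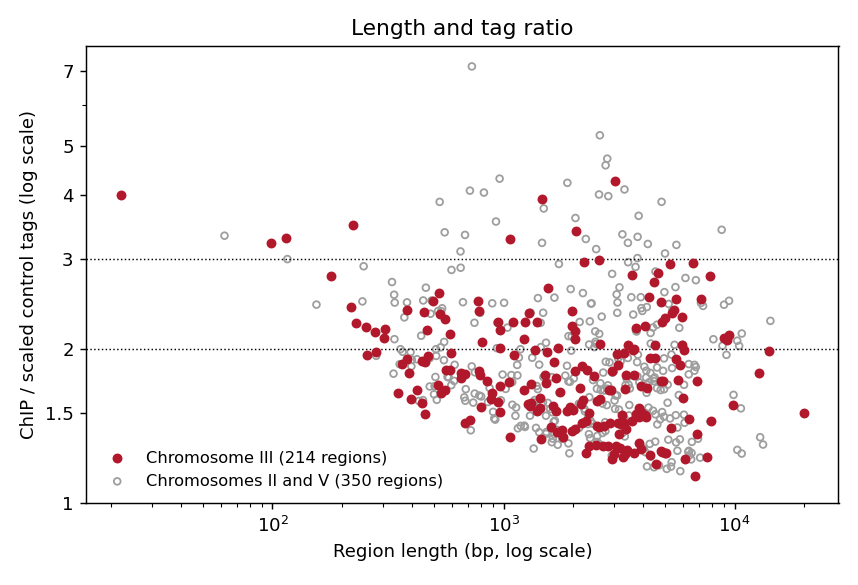
Each point is 1 region, with its length in bp and its ratio of ChIP to scaled control tags, both on log axes, for chromosome III (filled) and chromosomes II and V (open); dotted lines mark ratios of 2 and 3. The lower edge falls from left to right, and on III only 8 of 214 points reach a ratio of 3.

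Along the chromosome, regions were dense in the middle and sparse towards the left end. The right end of III was set at its last region while the left end was base 1, so the ends are not measured alike. The left, central and right parts, each 33.3% of the length by construction, held 48, 97 and 69 regions. The central share was 45.3% (38.5 to 52.3%), and 157, 247 and 202 kb were covered in the 3 parts. By windows of 1 Mb, the one from 5 to 6 Mb held the most regions, 31, which covered 54.7 kb with a median length of 1099 bp. The window from 7 to 8 Mb had fewer, 23, but covered the most, 73.8 kb, and includes the longest region. The window from 2 to 3 Mb was the emptiest, with 6 regions covering 8.31 kb, and the 2 windows to its left had 7 each. Counts of regions and covered length therefore ranked the windows differently.

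The widest stretches without a region were in the left part: 543.7 kb from 1626801 to 2170535 and 473.6 kb from 358084 to 831714. The third, 375.0 kb from 11252532 to 11627537, lay in the right part. When the chromosome was divided into 10 equal parts, parts 1 and 2 held 8 regions each, or 5.81 per Mb (2.51 to 11.4), and parts 5 and 6 held 32 each, or 23.2 per Mb (15.9 to 32.8). Part 10 held 24 regions, 17.4 per Mb (11.2 to 25.9), against 10.2 per Mb (7.96 to 12.9) in part 10 of the other autosomes together. In part 3 III had 19.6 per Mb (12.9 to 28.5), against 10.2 per Mb (7.96 to 12.9). The intervals of part 3 did not overlap, by a narrow margin, those of part 10 did, and both were picked from the 10 parts after their values were seen.

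**Figure D2:**
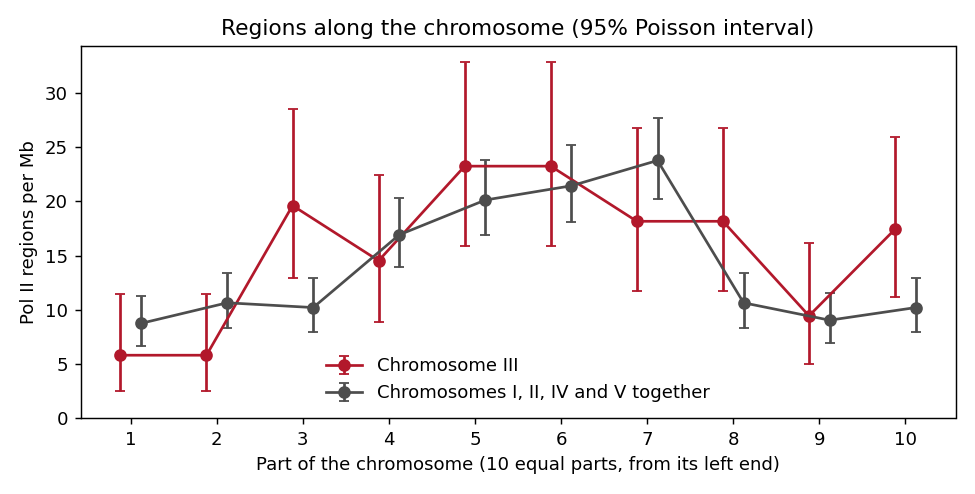
Regions per Mb in each of 10 equal parts of the chromosome from its left end, for chromosome III and for chromosomes I, II, IV and V together, with 95% Poisson intervals. Chromosome III starts at 5.81 per Mb, peaks at 23.2 in parts 5 and 6 and stands at 17.4 in part 10.

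Regions in the central part of III were shorter, with a median of 1728 bp (1392 to 2531 bp), than those of the left part, at 2712 bp (1761 to 3738 bp), and of the right part, at 2577 bp (1981 to 3395 bp), but the intervals overlapped. Ratios were alike in the central, left and right parts, at 1.74 (1.64 to 1.82), 1.79 (1.65 to 2.00) and 1.76 (1.55 to 1.96). ChIP tags per kb had medians of 270 (256 to 288) in the central part, 238 (204 to 264) in the left and 239 (217 to 280) in the right. Control tags before scaling moved the same way, with medians of 89.8 per kb in the central part, 81.3 in the left and 82.8 in the right, and their part in the higher ChIP tags was not tested. A region in the central part also had a close neighbour more often: 55 of 97 (56.7%) had another region within 5000 bp, against 19 of 48 (39.6%) in the left part and 25 of 69 (36.2%) in the right part.

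Over the whole of III, 99 of 214 regions, or 46.3% (39.4 to 53.2%), had a neighbour whose facing end lay within 5000 bp. The gap between neighbours had a median of 30491 bp (quartiles 4468 and 78632 bp), and 57 of 213 gaps were at most 5000 bp. Many of the close gaps were very short, with 38 at most 1000 bp and 20 at most 300 bp. None was under 200 bp, and this floor was not particular to III. The smallest gaps were 201 bp on I, 203 on II, 202 on IV and 205 on V. Regions linked by gaps of at most 5000 bp formed 31 pairs, 9 groups of 3 and 2 groups of 5, and 115 regions stood alone. Regions with a close neighbour had a median ratio of 1.77 (1.68 to 1.91), against 1.698 (1.57 to 1.86) in those without one, and a median length of 1983 bp (1542 to 2604 bp), against 2337 bp (1985 to 3065 bp). Neither pair of intervals was separate.

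Both groups of 5 were built around 1 long region. In the left part, 3789535 to 3813257 spans 23723 bp, of which 89.3% is covered. Its largest member, 3793290 to 3802597, and the member to its left, 3789535 to 3792983, had ratios of 2.09 (1.93 to 2.26) and 2.04 (1.79 to 2.32). The 3 members to the right were lower, at 1.36 (1.17 to 1.59), 1.67 (1.44 to 1.93) and 1.498 (1.25 to 1.80). The interval of the largest member lay above all 3 of these, in one case by a narrow margin. The second group, in the right part of the chromosome, spans 28265 bp, of which 70.2% is covered. Its 3 longer members, 12595544 to 12596351, 12596557 to 12601094 and 12603759 to 12617840, had like ratios of 2.06 (1.56 to 2.78), 1.92 (1.71 to 2.16) and 1.99 (1.87 to 2.12). Its 2 other members, 12622687 to 12622866 and 12623585 to 12623808, were 180 and 224 bp long and had 39 and 49 ChIP tags. Over all 57 neighbouring pairs within 5000 bp, the higher ratio exceeded the lower by a median of 1.22 times, against 1.26 times in the 156 pairs farther apart.

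**Figure D3:**
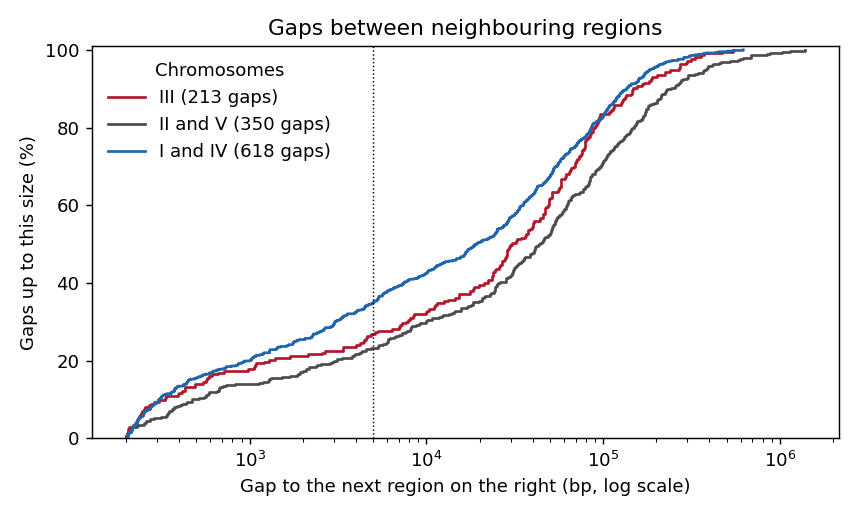
Cumulative share of gaps between neighbouring regions up to a given size in bp (log axis), for chromosome III, chromosomes II and V, and chromosomes I and IV; the dotted line marks 5000 bp. On III 26.8% of gaps lie at or under 5000 bp and 83.6% at or under 100000 bp.

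Against the other autosomes, III carried 15.5 regions per Mb (13.5 to 17.8), and I, II, IV and V together 14.2 per Mb (13.3 to 15.1). How III ranked depended on which autosome it was set against. It was above II, with 11.6 per Mb (9.91 to 13.4), and V, with 8.44 per Mb (7.24 to 9.79), without overlap of the intervals. Against II the margin was narrow. III was below I, with 21.5 per Mb (19.2 to 23.9), again without overlap, and within the interval of IV, with 16.996 per Mb (15.12 to 19.04). In covered length III had 44.0 kb per Mb (38.3 to 50.3). This interval is that of the region count rescaled to kb, and leaves out the spread of lengths. III was level with I, at 43.4, ahead of IV, at 39.999, only within that interval, and above II, at 33.1, and V, at 27.4. Without its longest region, left out after seeing the data, III had 42.6 kb per Mb. III thus held 18.0% of autosomal regions (15.9 to 20.4%) and 19.98% of the bases they cover on 16.7% of the autosomal length.

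**Figure D4:**
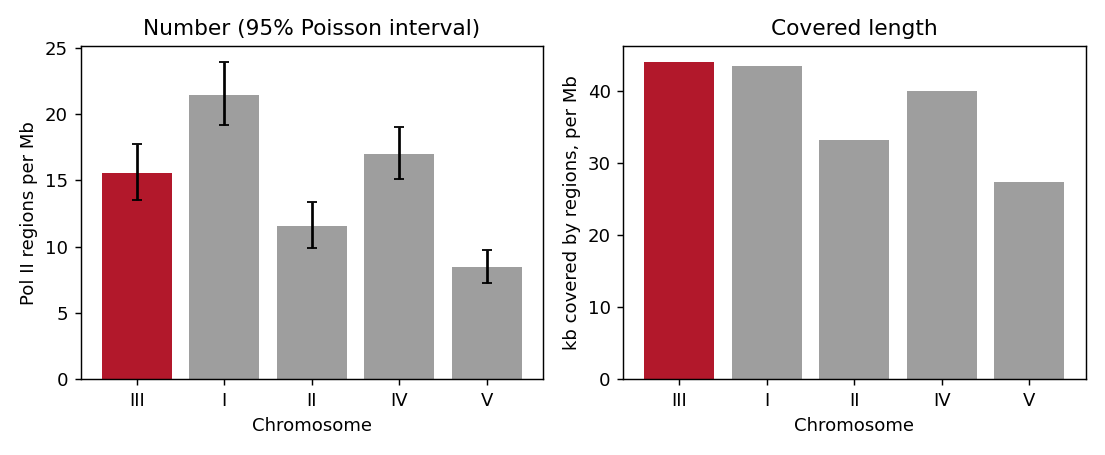
Left, Pol II regions per Mb on each autosome with 95% Poisson intervals; right, kb covered by regions per Mb. Chromosome III has 15.5 regions per Mb, below I and IV and above II and V, and 44.0 covered kb per Mb, level with the 43.4 of chromosome I.

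The control factor moved with these differences. It was 1.36 on I and 1.39 on IV, against 1.74 on III, 1.75 on V and 1.83 on II, and a lower factor makes a region easier to call. With the largest factor for every chromosome, 186 of 214 regions on III still passed the significance limit of the list, or 86.9%, against 71.6% of all 1301 regions with tags. The share kept was 94.3% on II and V, whose factors were 1.83 and 1.75, and 48.7% on I and IV, whose factors were lowest. The largest factor was that of II itself, so II kept 99.4% nearly by construction. V, with a factor like that of III, kept 89.2%. III then had 13.5 regions per Mb (11.6 to 15.6) and the other autosomes together 9.24. The difference in density thus changed in size with the factor, with III above the other autosomes together under both. Listed regions could only be dropped, not gained, and most of those dropped lay on I and IV. Density under a common factor therefore remains unknown, and the part of scaling in the difference was not tested. II and V had factors close to that of III, and comparisons with that pair are the least touched by it. Set against them, III had 15.5 regions per Mb, and II and V together 9.76 (8.76 to 10.8).

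Region length differed in sign between the 2 comparisons. The median on III, 2198 bp (1875 to 2624 bp), was above that of the other autosomes together, at 1826 bp (1622 to 2018 bp), and below that of II and V, at 2525 bp (2315 to 2796 bp). The intervals overlapped in both. The median ratio on III, 1.75 (1.67 to 1.82), was lower than the 1.86 (1.81 to 1.91) of the other autosomes together and near the 1.78 (1.72 to 1.85) of II and V, and the intervals overlapped in both, narrowly against the other autosomes. Before scaling, III had a median ratio of 3.06 (2.92 to 3.18) and the other autosomes together 2.85, so this difference turned with the scaling. It turned only against I and IV, with 2.64 before scaling, and III stayed below II and V, with 3.18. ChIP tags per kb had medians of 256 (245 to 270) on III, 250 (240 to 261) on II and V, and 211 (203 to 218) on I and IV.

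By the scaled control, fewer regions on III than on the other autosomes had high ratios, and part of this turned with the scaling. A ratio of at least 2 was found in 67 of 214 regions, or 31.3% (25.2 to 38.0%), against 38.4% of all regions with tags and 36.3% (31.2 to 41.6%) on II and V. The share on the other autosomes together was 40.99% (37.9 to 44.2%), a difference of -9.69 points for III, and with the largest control factor for every chromosome the difference was -4.25 points. A ratio of at least 3 was found in 8, or 3.74% (1.63 to 7.23%), against 9.45% of all regions with tags, 10.97% (9.07 to 13.1%) on the other autosomes and 9.43% (6.58 to 13.0%) on II and V. Among regions of at least 500 bp, a limit chosen after seeing the data, 4 of 186 on III had such a ratio, or 2.15% (0.589 to 5.41%). On II and V these were 31 of 321, or 9.66% (6.66 to 13.4%). On each of the other autosomes the share was higher than on III, at 8.84% on I, 7.41% on II, 7.95% on IV and 11.9% on V. The intervals of II (3.89 to 12.6%) and IV (4.99 to 11.9%) overlapped that of III. Those of I (5.62 to 13.1%) and V (7.35 to 18.0%) did not, I by a narrow margin. Alternatives with control tags left unscaled were chosen after seeing the data. A ratio of at least 2 was then found in 99.5% of regions on III (97.4 to 99.99%) and 91.7% on the other autosomes (89.8 to 93.4%), the opposite direction. By group the share was 100% on II and V and 87.0% on I and IV, so the direction turned only against I and IV. Listed regions exceed scaled control, so with a factor of 1.74 those on III reach an unscaled ratio of 2 largely by construction. An unscaled ratio of 3 was reached by 53.3% on III (46.3 to 60.1%) and 42.4% on the other autosomes (39.3 to 45.6%). These intervals were separate by a narrow margin, again in the opposite direction. At 4 the shares were 17.3% on III (12.5 to 23.0%) and 18.1% on the other autosomes (15.7 to 20.7%), with overlapping intervals. On II and V they were 59.4% (54.1 to 64.6%) at 3 and 26.3% (21.7 to 31.2%) at 4. An unscaled ratio of at least 5 was found in 5.61% on III (2.93 to 9.59%) and 7.87% on the other autosomes (6.25 to 9.75%). On II and V it was found in 11.7% (8.54 to 15.6%), and the intervals overlapped. With the largest factor everywhere, 3.76% of regions on III (1.53 to 7.60%) and 6.85% on the other autosomes had a ratio of at least 3. By each chromosome's own factor and at a ratio of 3, the interval of III was separate from that of the other autosomes over all lengths, and from that of II and V in the longer regions but not over all lengths. On the other autosomes 6 regions, among them some of the most significant in the list, have no recovered tags and are missing from these counts, as are the 29 regions ranked above the first in the list, which are not analysed here.

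**Figure D5:**
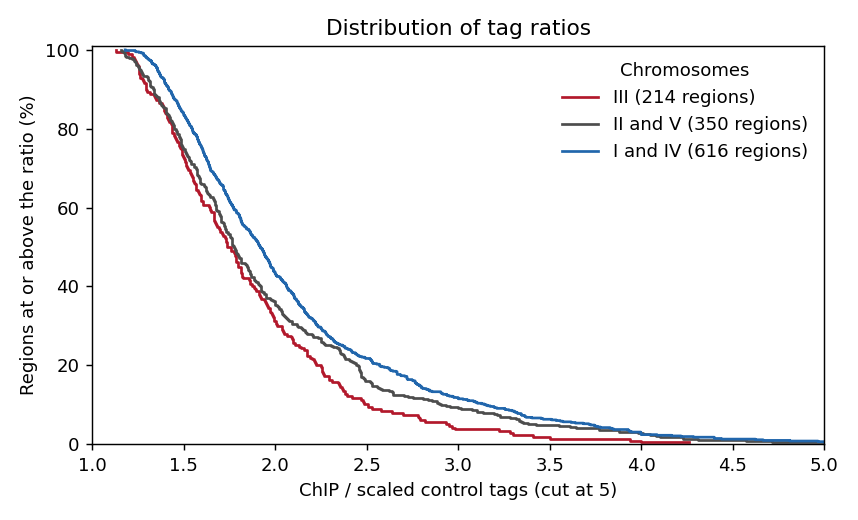
Share of regions, in percent, at or above each ratio of ChIP to scaled control tags, for chromosome III, chromosomes II and V, and chromosomes I and IV; the axis stops at 5. The line of chromosome III runs close to that of II and V at low ratios and lies below both others at 2 and 3, where 31.3% and 3.74% of its regions remain.

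The significance of regions on III was near that of the list as a whole. Of its 214 regions, 106 fell among the 655 more significant ones, or 49.5% (42.6 to 56.4%), against 49.1% (45.9 to 52.3%) on the other autosomes together and 58.8% (53.5 to 63.997%) on II and V. Among the 100 most significant listed regions, 13 lay on III, which holds 16.3% of the list. Close neighbours were about as common on III, at 46.3% (39.4 to 53.2%), as on the other autosomes, at 50% (46.8 to 53.2%), and their share on II and V was 39.8% (34.6 to 45.1%). The central share of 45.3% (38.5 to 52.3%) on III compared with 48.6% (45.4 to 51.8%) on the other autosomes. None of the intervals of III was separate from those it was set against.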

How the data were processed

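Chromatin of wild-type young adult worms was immunoprecipitated for Pol II and sequenced beside input DNA, with 2 libraries of each. The deposited list gives positions and a q-value for each region, made by PeakSeq, with WormBase WS180 named as genome build, per the file headers. For the PeakSeq version, aligner, filters and pooling of replicates the entry is: not given in the sources used here. The shared protocol text in the labels names embryos and an anti-GFP serum, unlike the sample labels.

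A q-value was read as p multiplied by the number of tests (found: 14435) and divided by rank (first: 30), with p an upper binomial tail at odds of 0.5, after the published PeakSeq procedure. This gave exactly 1 pair of tags in 1301 of 1310 regions (99.3%) within a relative tolerance of 1e-10, and in 0 with ranks lower or higher by 1. The deposited list thus starts at rank 30, and the 29 regions ranked above are not analysed here. Control factors were fitted per chromosome, with 96.0 to 98.3% of control tags as whole multiples, rounded up. The search was tested on simulated data. Chromosome lengths were taken as the end of the last region. Intervals were Clopper-Pearson for shares and ratios, Poisson for densities and binomial order statistics for medians, all at 95%. For covered length the Poisson interval of the region count was rescaled.

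Regions were named by rule: on III the 10 lowest q-values, 5 longest, 5 shortest, 5 highest and 5 lowest ratios, 5 with most tags per kb, 3 highest q-values, groups of 4 or more, the 3 widest gaps and extreme windows. Others were chosen after their values were seen. Members, rules and alternatives were chosen with earlier results of these data known. Tools were SciPy 1.17.1, pandas 2.3.3, NumPy 2.4.6 and, for figures, matplotlib 3.10.9, under Python 3.11.15.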

Additional observations from a re-analysis of the deposited data

How the results depend on the processing

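For III, 8 results, and the difference of each from the other autosomes, were recomputed under 18 alternatives, 11 of which concern 1 result only, and 80 of 122 values stayed within the main interval with their direction. Differences are III minus the other autosomes; the main ones were 1.37 regions per Mb, 372 bp, -0.12 in the median ratio, -3.23 points for the central share, -3.74 points for close neighbours and -0.0030 in the correlation of length and ratio. With the 655 more significant regions of the list, III had 7.70 regions and 30.6 kb per Mb, a median of 3420 bp, a median ratio of 1.98 and 46.2% of ratios of at least 2; the differences turned to 2.31 points (central), 11.0 points (neighbours) and 0.11 (correlation). Merging left 12.8 regions per Mb at 2735 bp within 1000 bp, and 11.4 at 3293 bp within 5000 bp. The largest control factor left 13.5 per Mb on III, with differences of 4.27 per Mb, -204.5 bp, -0.014 (ratio), 0.617 points (central), 7.31 points (neighbours) and 0.0094 (correlation). The median factor gave 5.26 per Mb, -195.5 bp, -0.033 (ratio), 5.62 points (neighbours) and 0.014 (correlation). Against II and V only, whose factors were like that of III, differences were 5.79 per Mb, -327.5 bp, -0.029 (ratio) and 6.49 points (neighbours). Without scaling the median ratio was 3.06, a difference of 0.21. Ratios of at least 3 made up 3.74%. Added after seeing the data, ratios of at least 3 made up 2.15% from 500 bp up and 3.76% with the largest factor; unscaled, ratios of at least 2 made up 99.5%, a difference of 7.81 points, and ratios of at least 5 made up 5.61%, a difference of -2.26 points. The central 50% of the chromosome held 66.8%, a difference of 2.11 points. Neighbours within 1000 bp were found for 34.1%, a difference of 2.12 points, and within 10000 bp for 55.1%. Fewer regions follow from using fewer of them, merging and larger factors by construction; the cause of the other changes was not tested. Differences in length, central share, neighbours and correlation thus had no fixed direction, and neither had the ratio or the share of ratios of at least 2 once control was left unscaled. Without scaling these last differences turned only against I and IV. On II and V the median ratio and the share were 3.18 and 100%, above the 3.06 and 99.5% of III. Higher density and covered length on III than on the other autosomes together kept their direction in every alternative run for them. The main difference in density was not separate from 0, however, with an interval of -0.64 to 3.60 from the counting error of III alone. Changing the factors could only remove listed regions, most of them on I and IV. No paired analysis was possible because replicates were pooled in the list, so none could be left out. Depth limits short regions, whose ratios have wide intervals.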
